A study of Mus musculus with 12 samples.

Results

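The genes described here encode 7 cell surface proteins by which blood stem and progenitor cells of the mouse are recognised: Kit, Flt3, Cd34, Procr, Ly6a, Slamf1 and Cd48. They were chosen by name, and each had 1 entry among the 38924 entries of the deposited table. RNA was sequenced from haematopoietic stem and progenitor cells, which give rise to all blood cells, in 12 libraries. All cells came from marrow of male C57BL/6 donors 4 to 5 weeks old and were enriched with magnetic beads that removed cells carrying CD45R, CD11b, CD3e, Ly-6G or TER119, proteins of maturing lineages. What remains after such removal is a mixture of stem cells and many kinds of progenitor. The 6 naive libraries (replicates 1, 2, 3, 7, 8 and 9) hold cells that never entered a recipient. The 6 brain-recovered libraries (replicates 4, 5, 6, 10, 11 and 12) were made from cells of which 1000000 were given into a vein, 24 h after the blood supply of the brain had been interrupted and restored, and which were taken from the brain 24 h later. The labels used here do not say how injected cells were told from cells of the host, nor whether each replicate had its own animals. The p-values therefore cover only the spread between these samples, part of which may be technical.

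Kit and Flt3 are receptor tyrosine kinases: binding of stem cell factor to Kit, or of Flt3 ligand to Flt3, pairs the receptors and starts signals for survival and division. Ly6a (Sca-1), a small protein held to the membrane by a lipid anchor, and Kit together define the marrow fraction that holds mouse stem cells. Within that fraction Slamf1 (CD150) and Procr (the endothelial protein C receptor) mark long-term stem cells, while Flt3, Cd34 and Cd48 are commonly used to set apart the multipotent progenitors that follow them. Cd34 is a sialomucin that selectins can bind, and Cd48 is a lipid-anchored ligand of Cd2 and Cd244a in the same receptor family as Slamf1. Ly6a, Procr and Cd34 are also made by endothelial cells, which line blood vessels.

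The genes lie on chromosomes 5 (Kit and Flt3), 1 (Cd34, Cd48 and Slamf1), 2 (Procr) and 15 (Ly6a). In GRCm38, Cd48 (171682009 to 171705258) and Slamf1 (171767127 to 171801184) are neighbours of the SLAM gene cluster on chromosome 1, 61868 bases apart. RefSeq promoter windows of GRCm38.p6, from 250 bases before to 50 after the start, were at hand for 6 of the 7 genes. The letters of 5 motifs were searched on both strands: AGATAA for GATA factors, AGGAAG for ETS factors and TGTGGT for RUNX factors, all families known from blood cells, and the general promoter motifs GGGCGG (SP1) and TATAAA (the TATA box). AGGAAG was found in 4 of the 6 genes (Kit, Cd34, Slamf1 and Cd48), beside 35.4% of all 32851 windows of that length. TGTGGT was found in Cd48 alone (16.8% of all windows) and AGATAA in 0 (11.2% of all windows). GGGCGG was found in Kit alone (35.7% of all windows) and TATAAA in 0 (13.6%). A match is a description of the letters, not a site. The windows of Kit (chr5:75574737-75575036, forward strand, the first of 2 overlapping windows), Slamf1 (chr1:171766882-171767181, forward) and Cd48 (chr1:171681742-171682041, forward) are shown as that of the receptor whose level is described first and those of the chromosome 1 neighbours. Capitals mark AGGAAG or TGTGGT on either strand.
Kit: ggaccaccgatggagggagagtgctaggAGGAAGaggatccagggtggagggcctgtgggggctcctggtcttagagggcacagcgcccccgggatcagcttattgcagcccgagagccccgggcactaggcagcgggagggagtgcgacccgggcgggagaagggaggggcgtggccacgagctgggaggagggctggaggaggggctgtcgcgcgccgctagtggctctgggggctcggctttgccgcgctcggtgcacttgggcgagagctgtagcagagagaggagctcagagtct
Slamf1: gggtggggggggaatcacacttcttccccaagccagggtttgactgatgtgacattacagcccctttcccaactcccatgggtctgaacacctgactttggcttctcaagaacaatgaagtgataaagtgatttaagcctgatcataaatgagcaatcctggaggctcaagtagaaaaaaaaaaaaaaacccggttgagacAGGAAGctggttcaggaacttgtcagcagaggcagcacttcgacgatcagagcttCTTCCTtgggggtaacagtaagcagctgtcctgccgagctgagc
Cd48: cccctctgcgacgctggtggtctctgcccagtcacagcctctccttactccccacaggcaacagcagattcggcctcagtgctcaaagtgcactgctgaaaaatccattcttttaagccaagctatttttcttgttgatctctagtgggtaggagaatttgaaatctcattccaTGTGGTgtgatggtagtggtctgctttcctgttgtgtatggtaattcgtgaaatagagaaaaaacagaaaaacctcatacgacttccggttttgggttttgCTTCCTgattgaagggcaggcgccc

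The labels of the table are displaced against the values in stretches, so each label was set against the length that the values imply. Every deposited value is a whole number of reads times a library constant divided by a length, and that length can be recovered. Procr (2031 bases) and Cd48 (1189 bases) had the exon length of their gene in GENCODE M21, and Ly6a (819 bases) had the length of its transcript Ly6a-201. The 5831 bases behind Kit equal the joined exons of 6 of its 8 annotated transcripts (213 distinct lengths can be made from sets of them), and all 8 together span 8911 bases. Its label, too, was kept by its neighbours, as described next. The lengths behind Cd34 (2621 bases), Slamf1 (3402 bases) and Flt3 (7760 bases) matched no set of their annotated transcripts, and that of Flt3 exceeds the 6176 bases annotated. For Kit and these 3 genes the label was kept because, of the 10 alphabetical neighbours with a recovered length on each side, between 2 and 8 carried the exon length of their own label, and no gene within 40 places had the length found. The label of Flt3 is the least certain of the 7.

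No member was called different between brain-recovered and naive cells, and 6 of the 7 stood at low values in every library, at most 52.1. The other member, Ly6a, was at 35095 in brain-recovered replicate 6 and at most 37.9 in the other 11 libraries. Over all 17689 entries tested with limma, 65 (0.367%) were higher in brain-recovered cells and 0 (0%) were lower at an adjusted p below 0.05, while an unadjusted p below 0.05 gave 1075 higher and 31 lower, 6.25% of the entries. An exact permutation test called 0 entries after adjustment. The smallest unadjusted p that this permutation test can give is 0.00216, which leaves little room for a call after adjustment over 17689 entries. Of the 6 members tested, 0 passed in either direction and 1 (Ly6a) had an unadjusted p below 0.05. In bulk samples, fewer cells of a type and less RNA per cell cannot be told apart.

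**Figure D1:**
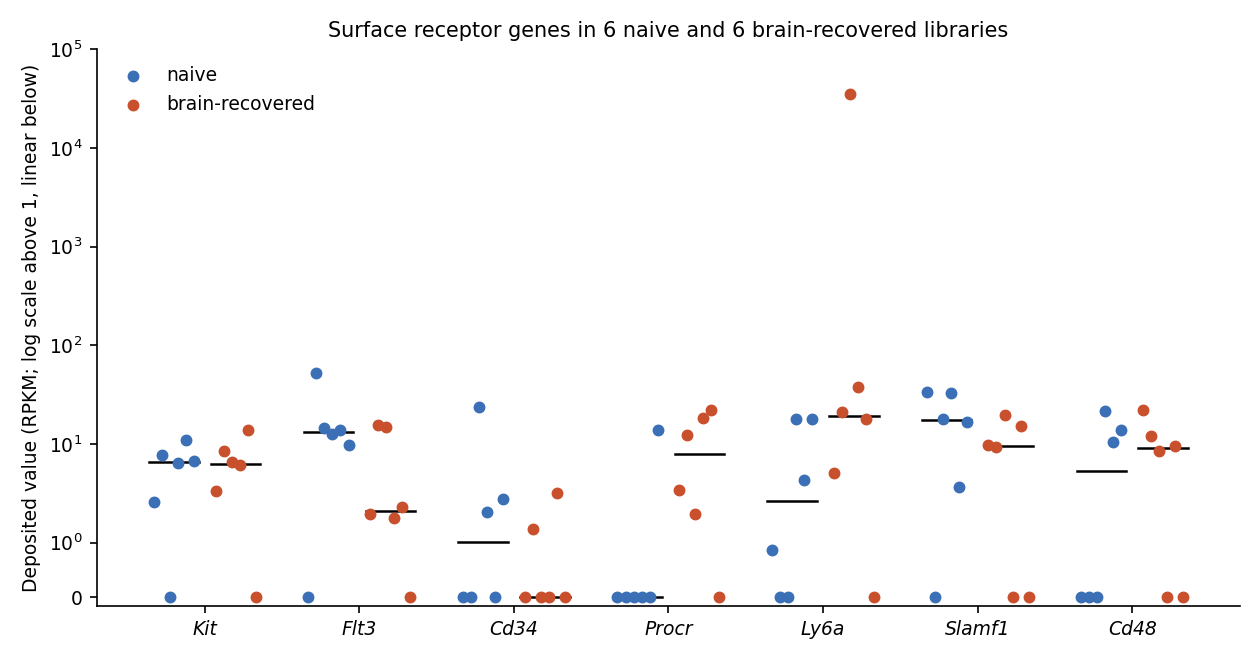
Deposited values (RPKM; log scale above 1, linear below) of the 7 genes; each point is 1 library, blue for 6 naive and red for 6 brain-recovered libraries in order of replicate number, and black lines are medians. All points but 1 lie at or below 52.1, and Ly6a in brain-recovered replicate 6 stands at 35095.

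Libraries differed strongly in how much of the table they covered. Reads recovered numbered 639332 to 2294623 in naive and 1034246 to 13349451 in brain-recovered libraries, and the libraries listed between 4380 and 23184 entries above 0. Naive replicates 1, 2 and 3 and brain-recovered replicate 12 had fewer than 10000 entries above 0. Naive replicates 1, 2 and 3 listed 3, 2 and 3 of the 7 genes above 0, and brain-recovered replicate 12 listed 0. The other naive libraries listed 5 to 7 of them and the other brain-recovered libraries 4 to 7. In all, 26 of 42 values were above 0 in the naive group and 30 of 42 in the brain-recovered group. Grb2, an adaptor used by nearly all cells, was itself at 0 in 5 of the 12 libraries, so a value of 0 is given here as listed at 0 and not as absence. The libraries numbered 1 to 6 and those numbered 7 to 12 each held 3 of either group, and the labels do not say that they were separate batches. The median log2 difference of all entries, brain-recovered minus naive, was 0.64 over all 12 libraries, 2.42 within libraries 1 to 6 and -1.09 within libraries 7 to 12. Values of single genes within these sets are to be read against those medians.

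Olfactory receptor genes, which have no known role in blood cells, were taken as a yardstick for low values: 753 had a usable label. Between 6.77% and 9.43% of them were above 0 in the 4 libraries of low coverage, and between 28.3% and 98.9% in the other 8. Of the 84 values of the 7 surface receptor genes, 3 exceeded the 95th percentile of olfactory receptors in their library. These were Flt3 in naive replicate 2, Cd34 in naive replicate 3 and Ly6a in brain-recovered replicate 6. Of the 56 values above 0, 29 (51.8%) were over the median of all entries above 0 in their library, a median that lay between 10.8 and 12.6 in every library. All values but those 3 thus lay within the range that 95% of the olfactory receptor genes covered. That bar was itself high: it lay between 18.3 and 58.1, above the median of all entries above 0 in every library. In naive replicate 9 it was 36.9, beside 36.41 for the 99th percentile of all entries above 0. A value under the bar therefore does not set a gene apart from most other entries. The part of reads of other origin in either set of genes was not tested.

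**Figure D2:**
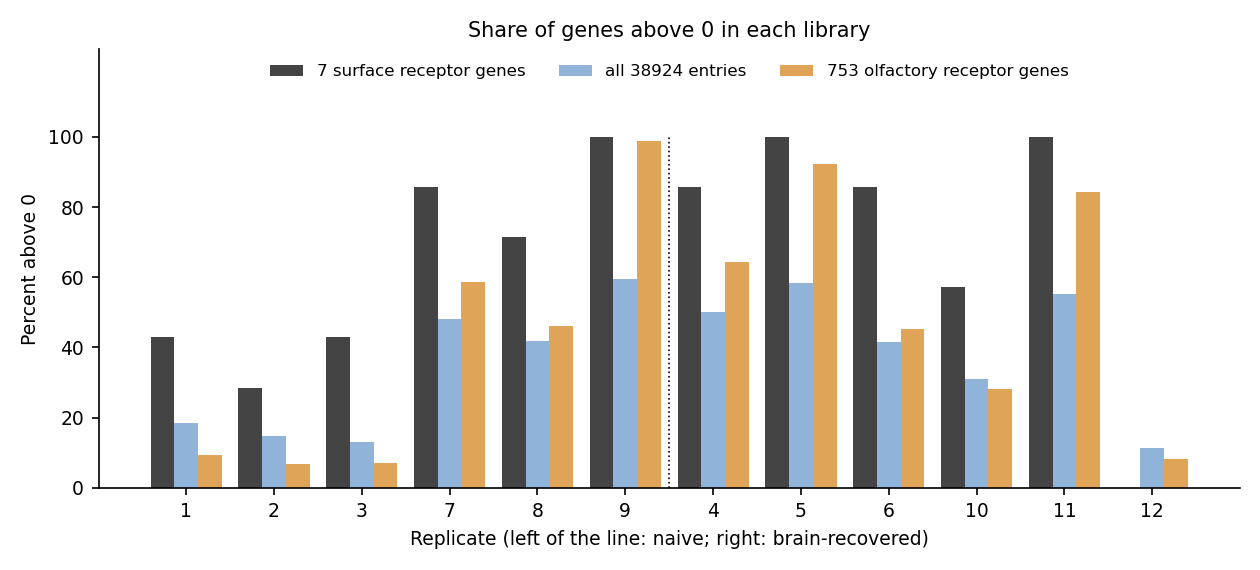
Percent of genes above 0 in each library, for the 7 surface receptor genes (dark), all 38924 entries (blue) and 753 olfactory receptor genes (orange); naive replicates are left of the dotted line and brain-recovered replicates right of it. Brain-recovered replicate 12 lists 0 of the 7 genes, and 98.9% of olfactory receptor genes are above 0 in naive replicate 9.

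Kit, the receptor for stem cell factor (ENSMUSG00000005672, chromosome 5, 75574916 to 75656722), did not differ between the groups beyond the spread of the libraries. It was at 2.57, 7.65, 0, 6.42, 11.03 and 6.79 in naive replicates 1, 2, 3, 7, 8 and 9, while the brain-recovered values were 3.30, 8.49, 6.53, 6.11, 13.9 and 0 in replicates 4, 5, 6, 10, 11 and 12. The groups overlapped over nearly their whole range, each with 1 library at 0. These values rest on 14 to 78 reads where Kit was above 0, and 1 read was worth 0.113 to 0.343. Among the entries above 0 of its library, Kit was between percentiles 12.2 and 62.2. The log2 difference, brain-recovered minus naive, was 0.10 ± 1.23 (SE, 6 libraries a group, limma adjusted p = 1.00, 95% interval -2.30 to 2.50), an interval that holds large differences in both directions. The sign turned with the libraries taken: the difference was 1.10 within libraries 1 to 6, -0.91 within libraries 7 to 12, and -1.55 with values scaled to library totals.

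Flt3, the receptor for Flt3 ligand (ENSMUSG00000042817, chromosome 5, 147330741 to 147400489), had its highest value in a naive library. It was listed at 0 in naive replicate 1 and at 52.1, 14.4, 12.7, 13.8 and 9.78 in replicates 2, 3, 7, 8 and 9. Its values in brain-recovered replicates 4, 5, 6, 10, 11 and 12 were 1.95, 15.5, 14.7, 1.78, 2.27 and 0. Brain-recovered replicates 5 and 6 lay among the naive libraries, whereas replicates 4, 10 and 11 lay below every naive library above 0. The log2 difference was -1.33 ± 1.26 (SE, 6 libraries a group, limma adjusted p = 0.966, 95% interval -3.80 to 1.13), so it did not exceed the spread between libraries. It was -0.03 within libraries 1 to 6, -2.64 within libraries 7 to 12, and -3.12 with values scaled to library totals (limma unadjusted p = 0.0402, adjusted p = 1.00). The 52.1 in naive replicate 2 rests on 535 reads, the largest number behind any of these values other than that of Ly6a in brain-recovered replicate 6. Since the reads were amplified and carried no molecular identifiers, that number does not count independent molecules.

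Slamf1, the receptor CD150 (ENSMUSG00000015316), had the highest naive median of the 7 genes, under a label kept by its neighbours and not by its length. Its values were 33.8, 0, 18.0, 32.6, 3.68 and 16.7 in naive replicates 1, 2, 3, 7, 8 and 9, and 9.69, 9.26, 19.4, 0, 15.2 and 0 in brain-recovered replicates 4, 5, 6, 10, 11 and 12. Naive replicates 1 and 7 were above every brain-recovered library and the others overlapped them. The log2 difference was -0.94 ± 1.27 (SE, 6 libraries a group, limma adjusted p = 0.986, 95% interval -3.44 to 1.55). It turned to 0.59 within libraries 1 to 6, and was -2.47 within libraries 7 to 12 and -2.57 with values scaled to library totals. Cd48 (ENSMUSG00000015355), the neighbour of Slamf1 on chromosome 1, was listed at 0 in naive replicates 1, 2 and 3 and at 21.4, 10.5 and 13.9 in replicates 7, 8 and 9. Among brain-recovered libraries its values were 21.9, 12.1, 8.42, 0, 9.60 and 0, in the order of replicates 4, 5, 6, 10, 11 and 12. Where it was above 0, the 2 groups overlapped (10.5 to 21.4 naive, 8.42 to 21.9 brain-recovered), and its log2 difference was 0.50 ± 1.196 (SE, 6 libraries a group, limma adjusted p = 0.998, 95% interval -1.85 to 2.84).

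The direction of Cd48 turned with the libraries taken. Among libraries numbered 1 to 6 it was called higher in brain-recovered cells (log2 difference 3.82, limma adjusted p = 0.00261, 3 against 3). That comparison called 37.8% of its 15890 entries higher and 0.00629% lower, and all 3 of its naive libraries were of low coverage. Cd48 was at 0 in those 3 naive libraries, so it passed the filter there through the brain-recovered libraries alone. Among libraries numbered 7 to 12 its difference was -2.83 (limma adjusted p = 0.82, 3 against 3). Without the 4 libraries of low coverage it was -0.99 (limma adjusted p = 0.987).

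Procr (ENSMUSG00000027611, chromosome 2, 155751117 to 155755471) was above 0 in 1 naive and 5 brain-recovered libraries. It was listed at 0 in naive replicates 1, 2, 3, 7 and 8 and at 14.0 in replicate 9. Brain-recovered replicates 4, 5, 6, 10, 11 and 12 had 3.38, 12.4, 1.97, 18.1, 21.96 and 0. The group ranges overlapped, because naive replicate 9 lay above 3 of the brain-recovered libraries above 0 and replicate 12 was at 0. Behind these values were 43 reads in naive replicate 9 and 5, 28, 2, 32 and 43 reads in brain-recovered replicates 4, 5, 6, 10 and 11. The log2 difference of 2.05 ± 1.06 (SE, 6 libraries a group, limma adjusted p = 0.810, 95% interval -0.02 to 4.13) did not pass the test over all entries. It was 4.10 with a pseudocount of 0.1 and 0.87 with quantile normalization. Procr entered that test with the fewest libraries allowed, 6 with a value of at least 1, of which 5 were brain-recovered. Among libraries 1 to 6 alone, where every naive library was at 0, it was called higher (log2 difference 2.48, limma adjusted p = 0.0139, 3 against 3). That call stands beside the 37.8% of entries called higher there and an all-entry median of 2.42. Procr passed the filter of that comparison through the 3 brain-recovered libraries alone.

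Ly6a, the stem cell antigen Sca-1 (ENSMUSG00000075602, chromosome 15, 74994877 to 74998031), had the largest difference between the groups among the 7 genes, and 1 library carried most of it. In naive replicates 1, 2, 3, 7, 8 and 9 it was at 0.871, 0, 0, 18.0, 4.36 and 17.7. Brain-recovered replicates 4, 5, 6, 10, 11 and 12 had 5.03, 20.9, 35095, 37.9, 17.7 and 0. Brain-recovered replicates 5, 6 and 10 were above every naive library, replicates 4 and 11 lay among the naive values and replicate 12 was at the bottom. The value of replicate 6 was 926 times the next highest, rested on 14353 reads and ranked 22 among the 16237 entries above 0 of that library. No other library had more than 27 reads of Ly6a. The log2 difference was 3.31 ± 1.32 (SE, 6 libraries a group, limma adjusted p = 0.553, unadjusted p = 0.0121, 95% interval 0.72 to 5.89). For limma's SE and interval, the spread is taken jointly from entries of similar mean level. An exact two-sided permutation test over all assignments of the libraries to the groups, which uses the values of Ly6a alone, gave p = 0.128, and 0.973 when adjusted over all entries. Without brain-recovered replicate 6 the difference was 1.34 (limma adjusted p = 1.00), and in libraries 7 to 12 alone it was -0.46 (limma adjusted p = 0.937). In libraries 1 to 6, which include that replicate, it was 7.08 (limma adjusted p = 0.148). It was 1.90 with quantile normalization, 2.19 with values scaled to library totals and 1.75 with sample weights. Without brain-recovered replicate 12, where all 7 genes were at 0, it was 4.36 (limma adjusted p = 0.074), in a comparison that called 1.29% of entries higher.

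Of the marker lists of other cell types, 5 had their highest sum in brain-recovered replicate 6: endothelial cell, oligodendrocyte, astrocyte, erythroid cell, and T and NK cell. Endothelial genes summed to 14422 there, with 8 of 10 above 0, against 50.8 to 243 in the naive libraries and 6586 in the next highest brain-recovered library. Of that sum 13010 came from Ly6c1, a relative of Ly6a in the same gene family. The labels of Ly6c1, Cdh5, Cldn5, Pecam1, Flt1, Kdr and Slco1a4 were kept by their neighbours and not by their length, so they are less certain. Ly6c1 also stood at 6464 in brain-recovered replicate 10, where Ly6a was at 37.9. The other 9 endothelial genes summed to 1413, of which the endothelial cadherin gene Cdh5 gave 1309. Cldn5, a tight junction gene of brain vessels, was at 45.3, its highest value in the 12 libraries. Pecam1 was at 22.7, below the 34.4 of naive replicate 8. Flt1 was at 14.5 and Emcn at 8.89, against 131 and 77.3 in naive replicate 1. Kdr and Tie1 were also exceeded in naive libraries, and the transporter genes Slco1a4 and Slco1c1 were listed at 0. In the other 11 libraries these 9 genes summed to 0.0683 to 243. In replicate 6, T and NK cell genes summed to 26292, oligodendrocyte genes to 23110, erythroid genes to 13834 and astrocyte genes to 2229. Single genes gave most of 3 of these sums: Trac 26281 for T and NK cells, Car2 12491 for erythroid cells and Slc1a2 2096 for astrocytes. Cd3e, Klf1 and Epor were at 0 there. Myeloid progenitor genes summed to 25186 there, below the 110218 of replicate 10. The part of these other cell types in the Ly6a value was not tested. Ly6a and Ly6c1 are similar in sequence. Whether reads were divided between them by the counting step, which is not given in the sources used here, was not tested.

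Cd34 (ENSMUSG00000016494, chromosome 1, 194938819 to 194961279) was the least often found of the 7 genes, being above 0 in 5 of 12 libraries. It was at 23.7, 2.04 and 2.77 in naive replicates 3, 7 and 9, and at 1.37 and 3.17 in brain-recovered replicates 5 and 11. The other 3 naive and 4 brain-recovered libraries were at 0. The 23.7 rests on 63 reads and the other 4 values on 4 to 11. Cd34 did not pass the filter of a value of at least 1 in 6 libraries and was not tested. The means of log2(value + 1) differed by -0.81 (brain-recovered minus naive), and by -0.15 without naive replicate 3.

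Because the values are per length, the genes can be set in order within a group, as far as label and length are right. The lengths behind Slamf1, Flt3 and Cd34 matched no set of their annotated transcripts, so the places of these genes are less certain. By their medians over 6 naive libraries the order was Slamf1 (17.3), Flt3 (13.3), Kit (6.60), Cd48 (5.26), Ly6a (2.62), Cd34 (1.02) and Procr (0). Over the 6 brain-recovered libraries it was Ly6a (19.3), Slamf1 (9.47), Cd48 (9.01), Procr (7.89), Kit (6.32), Flt3 (2.11) and Cd34 (0). All 7 genes had at least 1 library at 0 in both groups, so the ranges of any 2 neighbours in either order overlap and neither order is larger than the spread between libraries.

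**Figure D3:**
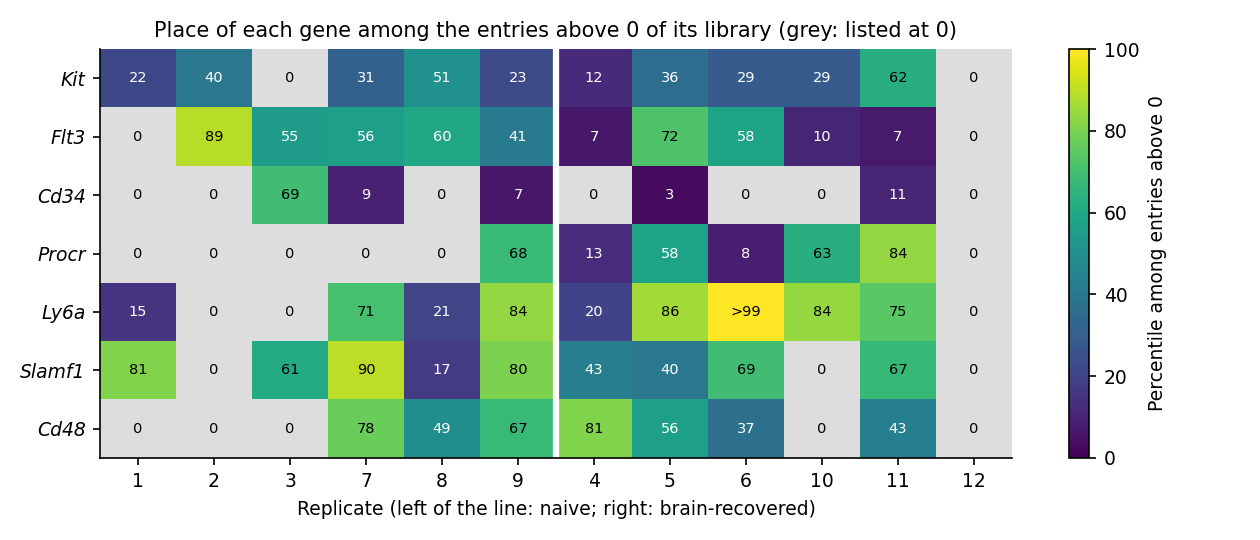
Percentile of each gene among the entries above 0 of the same library, by replicate, naive left and brain-recovered right of the white line; grey cells marked 0 are values listed at 0. Kit runs from 12.2 to 62.2 in the 10 libraries that list it, and Ly6a reaches 99.9 in brain-recovered replicate 6.

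**Figure D4:**
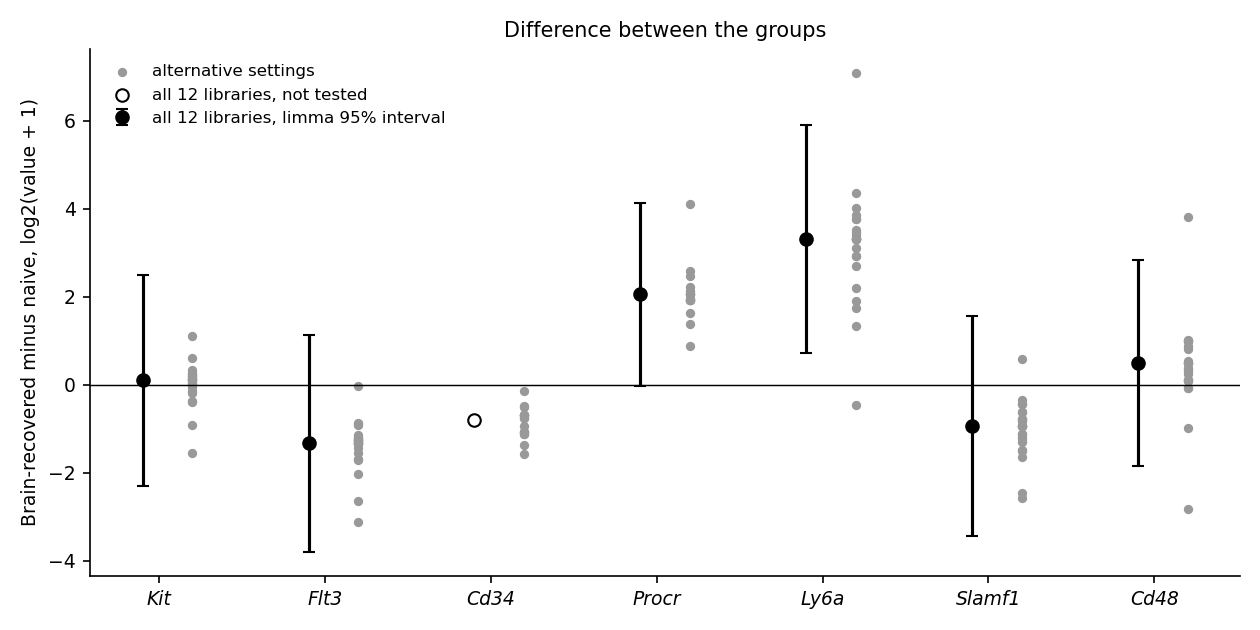
Brain-recovered minus naive difference of mean log2(value + 1) for each gene: black points are all 12 libraries with the limma 95% interval, the open point of Cd34 was not tested, and grey points are alternative settings. The interval of Ly6a runs from 0.72 to 5.89 and the intervals of the 5 other tested genes include 0.

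None of the genes around these receptors passed the test over all entries either, in the 7 lists described next. Of the 8 tested partners and substrates of the receptors, 0 were called in either direction (median log2 difference 0.62, beside 0.64 over all 17689 entries). The highest was Podxl, a sialomucin related to Cd34, with 3566.8 in brain-recovered replicate 10, 114 in replicate 6 and at most 16.6 elsewhere (log2 difference 3.48 ± 1.30 SE, 6 libraries a group, limma adjusted p = 0.461). Kitl, which encodes stem cell factor, was at 0.58 ± 1.24 (SE, limma adjusted p = 0.996). Flt3l, which encodes the ligand of Flt3, was not analysed here.

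Of the 19 signalling genes downstream of Kit and Flt3, all tested, 0 were called (median 1.08). The highest log2 difference belonged to Ptpn6, the phosphatase SHP-1 that restrains Kit signals, at 3.83 ± 1.36 (SE, 6 libraries a group, limma adjusted p = 0.379). Brain-recovered replicates 5, 6, 10 and 11 had 300.3, 1094, 1569 and 200.3, with the gene at 0.490 in replicate 4 and 0 in replicate 12, and at most 29.2 in the naive libraries. The lowest was Grb2, an adaptor that links receptor kinases to Ras, at -1.31 ± 1.24 (limma adjusted p = 0.967).

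Of the 12 tested cytokine receptors of progenitors, 0 were called (median 0.42). Their extremes were Il6st, the shared signal chain of the interleukin 6 family, at 1.82 ± 1.265 (SE, limma adjusted p = 0.953), and Il7r, the interleukin 7 receptor of lymphoid progenitors, at -1.03 ± 1.26 (0.984). Of the 7 tested genes of the SLAM family and its relatives, 0 were called (median 1.00), between Cd2 at 2.12 ± 1.23 and Ly9 at -0.95 ± 1.21. Of the 17 tested other surface markers of stem and progenitor cells, 0 were called (median 1.42). Fcgr3, an Fc receptor of granulocyte and macrophage progenitors, had the highest difference (3.16 ± 1.28 SE, limma adjusted p = 0.570) and the tetraspanin gene Cd9 the lowest (-1.30 ± 1.25, 0.968).

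Ly6 family genes other than Ly6a had 0 of 7 tested members called (median 1.69). Ly6e, a family member made by many cell types, had 4917, 1702 and 1021 in brain-recovered replicates 4, 5 and 6, 11574 in replicate 10, 9.47 in replicate 11 and 0 in replicate 12, against 1.64 to 57.3 in the naive libraries. Its log2 difference was 4.83 ± 1.44 (SE, 6 libraries a group, limma adjusted p = 0.137), and that of Ly6c1 was 4.75 ± 1.32 (limma adjusted p = 0.0798). The lowest was Ly6d at -1.31 ± 1.195. The labels of Ly6c1, Ly6d and Ly6e were kept by their neighbours and not by their length. The lineage proteins removed in the enrichment gave 0 of 2 tested genes called (median 1.53). Itgam, which encodes CD11b, was at 10707 in brain-recovered replicate 10 and at most 24.7 in the other 11 libraries (1.91 ± 1.30 SE, limma adjusted p = 0.949), and Cd3e, which encodes a chain of the T cell receptor complex, had the other difference (1.15 ± 0.89).

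The entries most like each member were sought among 8247 tested entries of exact gene length by Spearman's rho over the 12 libraries, as a description. The 3 closest were Prpf8, Leprot and Cd86 for Kit (rho 0.979, 0.959 and 0.916), Trim44, Med9 and Fam171a1 for Flt3 (0.956, 0.854 and 0.846), and Zfp92, Ptprj and Rims4 for Slamf1 (0.894, 0.879 and 0.872). For Cd48 they included Fbxl21 and Taf15 (0.992 and 0.985), and they were, for Procr, Gm26515, Gm5773 and C87977 (0.976, 0.968 and 0.964), and for Ly6a 4833422C13Rik, Mixl1 and Tm7sf3 (0.975, 0.975 and 0.972). The points share the libraries at 0: Cd48 and Fbxl21 were both at 0 in 5 libraries, and Procr and Gm26515 in 6. Of the 7 members, only Procr and Cd48 had exact gene length, so the others could not appear among the closest. Neither Procr nor Cd48 was among the 3 closest of another member.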

How the data were processed

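Per the labels' protocols, lysed cells were used for cDNA synthesis and PCR without an RNA purification step named (a SMARTer kit for very low input), and Nextera XT libraries were run on a HiSeq instrument. Trimmomatic 0.32 and the GRCm38 build are named, per the submitters' processing notes. How reads were aligned and counted, and with which annotation, is not given in the sources used here. As a single table, the authors deposited values treated here as RPKM, reads scaled by library and gene length, although its header names no unit. The reason is that values are whole reads (within 0.004 of a read, widened slightly for large numbers) times 1 constant per library, divided by 1 length per entry.

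That length was compared with GENCODE M21 exon lengths. Of 23266 entries with both lengths, 10918 (46.9%) matched their gene and 2012 more a single transcript. Other labels were used where at least 2 of the 10 informative alphabetical neighbours on each side matched, no gene within 40 places had that length, the length was at most 2 times the annotated one, and the symbol held no hyphen and was no Ensembl identifier. Labels kept by neighbours in this way are less certain. Beside members, they include Kitl, Il7r, Ly6c1, Ly6d, Ly6e, Itgam, Cd3e, Cdh5, Cldn5 and Pecam1. Flt1, Kdr, Slco1a4, Car2, Klf1, Epor, Elane and S100a8 are also among them. The rules left 2802 of 24388 entries above 0 without a name.

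Groups were compared by moderated linear models (limma 3.58.1 under R 4.3.3, with a variance trend) on log2(value + 1). Entries needed 6 libraries at 1 or more when all 12 libraries were fitted. Fits to fewer libraries lowered that number in proportion, rounded up, to 3 for libraries 1 to 6 and for libraries 7 to 12. The p-values were adjusted by Benjamini-Hochberg over all entries tested, with a threshold of 0.05. In the fit to all 12 libraries the weight of the variance trend was infinite, so limma's SE there rests on the pooled spread. It was finite in some alternatives. In libraries 1 to 6 that weight was 2.56, so the SE there rests in part on each entry's own spread. The log2(value + 1) scale understates the change of low genes. The test was tried on simulated data first. Text names the 7 members, every called gene of each pathway list or else its highest and lowest difference, and the 3 entries of highest Spearman's rho, except 2 genes that are not reported here. The cell type lists were endothelial cell, microglia and macrophage, oligodendrocyte, astrocyte, neuron, mast cell, myeloid progenitor, erythroid cell, B cell, T and NK cell and maturing neutrophil. The members and lists were chosen with earlier results of these data known. Python 3.11.15 ran the remaining steps with scipy 1.17.1, numpy 2.4.6, matplotlib 3.10.9 and pandas 2.3.3. Alternatives were another pseudocount, other filters, scalings and variance models, sample weights, sets of libraries and an exact permutation test.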

Additional observations from a re-analysis of the deposited data

Results flagged for a closer look

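In 14 groups of 6 libraries (7 genes, 2 groups each), a single library stood apart from the others on the log2(value + 1) scale in 2, by Dixon's test, which flags about 1 in 20 groups by chance. Ly6a at 35095 in brain-recovered replicate 6 had a gap to the next library of 0.65 of the group's range, above the critical value for 6 samples. Procr at 14.0 in naive replicate 9 stood against 5 naive libraries listed at 0, so its gap was the whole range. Any value above 0 would have been flagged there, and the rate of 1 in 20 does not apply to that group. Naive replicate 9 had 23184 entries above 0, the most of the 12 libraries.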

How the results depend on the processing

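None of the 6 tested members passed the threshold with all 12 libraries, and the only 2 calls in any alternative were those of Procr (2.48) and Cd48 (3.82) in libraries 1 to 6. Both genes passed the filter there through the brain-recovered libraries alone, since every naive library of that set was at 0. With each library left out in turn, the log2 difference ran from -0.38 to 0.60 for Kit, -2.03 to -0.88 for Flt3, 1.92 to 2.59 for Procr, 1.34 to 4.36 for Ly6a, -1.64 to -0.44 for Slamf1, 0.09 to 1.00 for Cd48 and -1.11 to -0.15 for Cd34. Procr could be tested in only 6 of the 12, since it fell under the filter whenever a library that listed it above 0 was left out. Its range therefore covers only the removal of libraries at 0 and does not show how it depends on the others. The range of Cd34 was taken without the filter. Kit turned negative with quantile normalization (-0.39), with scaling to library totals (-1.55), in libraries 7 to 12 (-0.91), without the 4 libraries of low coverage (-0.15), and without naive replicate 1 (-0.01) or 3 (-0.38) or brain-recovered replicate 5 (-0.05) or 11 (-0.18). Cd48 turned with quantile normalization (-0.07), with scaling to totals (-0.07), in libraries 7 to 12 (-2.83) and without the low-coverage libraries (-0.99). Slamf1 turned in libraries 1 to 6 (0.59) and Ly6a in libraries 7 to 12 (-0.46). The all-entry median of 0.64 became -0.06 with quantile normalization, -0.28 with scaling to totals, 2.42 in libraries 1 to 6 and -1.09 in libraries 7 to 12.

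The 65 entries called became 33 when entries needed 10 or more in 6 libraries, 115 without the variance trend, 2 without the low-coverage libraries and 6011 in libraries 1 to 6. They became 0 with quantile normalization (unadjusted p below 0.05 in 557 higher and 497 lower entries), scaling to totals (196 and 381), in libraries 7 to 12 (181 and 825) and with the exact permutation test (772 entries, where the smallest p it can give is 0.00216). Leaving out 1 library gave 36 (naive replicate 8) to 226 (brain-recovered replicate 12), with 39 without naive replicate 1 or brain-recovered replicate 11, 40 without naive replicate 9 or brain-recovered replicate 5, and 41 without brain-recovered replicate 6. The cause of these changes was not tested. Values of 4 reads or fewer, as for Cd34, Procr and Ly6a in several libraries, set a floor to what can be told apart. No paired analysis was possible because the groups share no replicate numbers. A fit with the library set (1 to 6 or 7 to 12) as a term, chosen after seeing the data, left the differences as they were, since the sets are balanced, called 65 entries and none of the members (limma adjusted p from 0.57 for Ly6a to 1.00).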

Other observations

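The levels of marker genes of other cell types, summed by list, differed widely between libraries. Myeloid progenitor genes (5 of usable label) summed to 0.857 to 97.6 in naive and 123 to 110218 in brain-recovered cells, led by Elane at 65623 in replicate 10. Single genes gave most of the low brain-recovered sums. In replicate 12 this was Ctsg at 121.5, with Elane at 0 and Mpo at 0.231. In replicate 4 it was Prtn3 at 172.1, while Elane (4.48) and Mpo (14.0) lay within their naive ranges. Of these 5 genes, all tested, Elane and Mpo, which encode granule enzymes of young myeloid cells, were called higher in brain-recovered cells (log2 differences 5.99 ± 1.39 and 5.86 ± 1.40 SE, limma adjusted p = 0.00835 and 0.0125). They were the only 2 genes called among the 11 cell type lists, beside 0.367% of all 17689 entries called higher. The label of Elane was kept by its neighbours and not by its length. Neither gene was called with quantile normalization, with scaling to library totals, in libraries 7 to 12 or by the exact permutation test, which called 0 entries each. Mast cell genes, of a lineage that keeps Kit on its surface, summed to 8.29 to 107.6 in the naive and 42.8 to 193.9 in the brain-recovered libraries (8 genes). Microglia and macrophage genes (9 genes) reached 184.9 in the naive and 21249 in the brain-recovered libraries, with C1qa at 19416 in replicate 10. Oligodendrocyte genes (7 genes) ran from 16.6 to 99.7 and from 47.0 to 23110, with Cnp at 6547 in replicate 6, and astrocyte genes (7 genes) from 25.0 to 90.8 and from 5.25 to 2229. Neuron genes (6 genes) ran from 0 to 121.7 and from 8.05 to 392.2. B cell genes (5 genes) reached 113 and 190.4. T and NK cell genes (4 genes) reached 117 in the naive libraries and 26292 in brain-recovered replicate 6, where Trac alone gave 26281. Erythroid genes (5 genes) reached 57.2 and 13834, of which Car2 in replicate 6 gave 12491. Maturing neutrophil genes (7 genes) spanned 70 to 12975 in naive and 0 to 17639 in brain-recovered cells, with S100a8 at 6518 in naive replicate 1 and 9558 in brain-recovered replicate 4.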
